A study of Mus musculus with 6 samples.

Results

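The heat shock chaperones of regulatory T cells (Tregs) were examined in bulk RNA-Seq of mouse spleen: Hspa1a, Hspa1b, Hspa8, Hsp90aa1, Hsp90ab1, Hsph1, Dnajb1, Dnaja1, Hspd1 and Hspe1. They were taken by symbol as 10 of the 32285 rows of the count table, and all 10 passed the filter on low counts. The libraries came from CD4+CD25+ Tregs of C57BL/6 mice, 3 labelled WT and 3 labelled Zfp335 deficient (KO). KO animals were ERCre Zfp335fl/fl mice, in which a Cre recombinase fused to an estrogen receptor domain enters the nucleus once tamoxifen is given and deletes Zfp335, which encodes a zinc finger transcription factor. ERCre is not restricted to Tregs, so other cells of these mice could lose Zfp335 as well. The labels call the WT animals wild-type littermates and mention no drug, whereas the study's methods describe tamoxifen-treated ERCre controls. The methods also give mice of 6 weeks, injections on days 1, 3 and 5 and collection on day 7. Neither source says whether a library came from 1 animal or from pooled animals, so p-values measure the spread between these libraries.

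Chaperones bind unfolded or partly folded proteins and keep them from clumping until they fold. HSP70 proteins (Hspa genes) hold short exposed stretches in a cycle driven by ATP, J-domain proteins (Dnaj genes) deliver clients and start that cycle, and HSP110 proteins such as Hsph1 release the nucleotide so that it can begin again. HSP90 proteins act later, on nearly folded clients such as kinases and steroid receptors, and the HSP60 chaperonin (Hspd1) with its lid (Hspe1) folds proteins inside mitochondria. Hspa8 and Hsp90ab1 are the constitutive forms, Hspa1a, Hspa1b and Hsp90aa1 the inducible ones. On heat or other protein damage, heat shock factor 1 (Hsf1) switches the inducible genes on within minutes by binding inverted repeats of the letters GAA in their promoters. Dissociating and sorting cells can also induce these genes.

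Upstream sequence is shown for the near-identical Hspa1 pair, for the overlapping Hspd1 and Hspe1 and for Hsph1, the gene with the smallest p-value below. It is given 5′ to 3′ as the 250 bases before the RefSeq start on GRCm38.p6, which can lie inside the gene's span in GENCODE, the source of the gene positions, and no link between these letters and the counts was tested. Hspa1b and Hspa1a lie next to each other on the minus strand of chromosome 17, at chr17:34956436-34959238 and chr17:34969190-34972156 of GRCm38, the build that the submitters' processing notes call mm10. Their promoter windows of 300 bases, which run on for 50 bases past the start, differ at 4 positions counted from 1 at the 5′ end: T44C, C47T, G249T and T276C, with the Hspa1b base first. Capitals mark the differences that fall upstream of the start, in chr17:34959239-34959488 for Hspa1b and chr17:34972157-34972406 for Hspa1a.
Hspa1b: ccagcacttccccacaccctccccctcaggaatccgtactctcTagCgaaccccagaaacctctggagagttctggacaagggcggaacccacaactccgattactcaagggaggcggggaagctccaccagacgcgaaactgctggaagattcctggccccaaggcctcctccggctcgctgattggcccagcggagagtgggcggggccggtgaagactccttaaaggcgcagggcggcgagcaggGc
Hspa1a: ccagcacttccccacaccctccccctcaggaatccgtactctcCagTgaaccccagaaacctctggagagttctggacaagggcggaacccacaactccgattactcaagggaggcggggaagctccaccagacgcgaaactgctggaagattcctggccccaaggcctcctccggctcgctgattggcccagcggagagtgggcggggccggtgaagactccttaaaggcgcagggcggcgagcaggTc
Hspd1 and Hspe1 overlap at their 5′ ends on chromosome 1, Hspd1 on the minus strand at chr1:55077835-55088243 and Hspe1 on the plus strand at chr1:55088132-55091307. The stretch upstream of Hspe1, chr1:55087898-55088147, therefore lies inside the annotated Hspd1 gene, and capitals mark a run of 4 inverted GAA repeats, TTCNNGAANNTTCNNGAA in the letters searched.
Hspe1: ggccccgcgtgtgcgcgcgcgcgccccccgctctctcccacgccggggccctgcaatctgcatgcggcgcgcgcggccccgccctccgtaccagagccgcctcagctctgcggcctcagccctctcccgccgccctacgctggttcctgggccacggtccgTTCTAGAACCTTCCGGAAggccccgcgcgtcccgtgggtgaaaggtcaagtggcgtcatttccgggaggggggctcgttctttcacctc
Hsph1, on the minus strand of chromosome 5 at chr5:149614287-149636376, has chr5:149636337-149636586 before its outer RefSeq start, and in it capitals mark TTCNNGAA.
Hsph1: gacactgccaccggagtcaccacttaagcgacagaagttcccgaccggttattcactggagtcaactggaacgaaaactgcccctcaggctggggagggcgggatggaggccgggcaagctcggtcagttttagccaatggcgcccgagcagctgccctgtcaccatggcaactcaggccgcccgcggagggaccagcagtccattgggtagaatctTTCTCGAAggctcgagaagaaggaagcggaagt
Windows were found for 7 of the 10 genes; Hspa8, Hsp90aa1 and Hsp90ab1 had none in the table. On either strand, a pair of repeats (GAANNTTC or TTCNNGAA, both of which read the same on the other strand and can overlap each other) was found in 7 of the 12 windows of these genes, against 15.1% of all 32851 windows of the same length. These were the windows of Hspa1a, Hspa1b and Hspe1, both of Hsph1, 1 of 3 of Dnaja1 and 1 of 2 of Hspd1. They are not separate hits, since the Hspa1 windows are nearly identical, the windows of Hsph1 overlap and the hit of Hspd1 lies in the same DNA as that of Hspe1. Neither window of Dnajb1 held these letters. The run of 4 was in 5 of the 32851 windows, among them those of Hspe1 and of the inner Hspd1 start, but not the window at the outer Hspd1 start, position 55088243. A match describes the letters alone, and no binding was measured here.

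Library totals ran from 133283969 counts in WT replicate 3 to 209041812 in KO replicate 2. Zfp335 itself fell from 115 to 124 CPM in WT to 14.3 to 15.1 CPM in KO (log2 fold change -3.02, standard error (SE) 0.046, edgeR adjusted p = 1.2e-13). CPM, the unit of edgeR's cpm function, divides a gene's count by the size of its library after TMM scaling. All 7 Treg markers were present in every library, with summed levels of 3575 to 3622 CPM in WT and 3669 to 3724 CPM in KO, and 4 of them were called in edgeR's test. Ctla4 and Tnfrsf18 rose (log2 fold changes 0.65 and 0.12), while Foxp3 and Il2ra fell (-0.11 and -0.15). Ctla4 kept its call in all 17 alternatives. Tnfrsf18 lost its call in 6 of them (highest edgeR adjusted p = 0.212). Foxp3 lost it without any single KO replicate (highest edgeR adjusted p = 0.0922), and Il2ra without KO replicate 2 (edgeR adjusted p = 0.0523). Marker RNA of other cells differed by cell type: 6 of 6 B cell, 5 of 5 red cell and 6 of 8 myeloid markers were lower in KO in edgeR's test. Their summed levels were 47.2 to 51.6 CPM, 36.5 to 43.4 CPM and 43.4 to 48.9 CPM in WT and 21.7 to 23.6 CPM, 1.81 to 2.31 CPM and 24.0 to 25.8 CPM in KO. None of these markers was at 0 in every KO library. The myeloid marker Csf1r was higher in every KO library than in any WT library but did not pass (0.22, edgeR adjusted p = 0.0821). Of 4 plasma cell markers, 2 were lower and 1, Xbp1, was higher in KO (0.25, edgeR adjusted p = 0.000569). Of 6 CD8 T and NK cell markers, only 1 was called, and it was lower in KO. Xist, made from the inactive X chromosome of females, was at most 0.424 CPM in WT and at least 124 CPM in KO, while Y-linked genes were counted in all 6 libraries. Of these, Ddx3y, Kdm5d and Uty were lower in KO (log2 fold changes -0.38, -0.28 and -0.54, highest edgeR adjusted p = 0.000403) and Eif2s3y was not called (0.011, edgeR adjusted p = 0.90). RNA with Xist was thus in every KO library and nearly absent from WT, so that this difference in sex-linked RNA and the genotype cannot be told apart. The part of these differences in the chaperone results was not tested. In RNA from bulk cells, fewer cells of a type and less RNA per cell cannot be told apart.

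To find out whether chaperone RNA differs after loss of Zfp335, KO was compared with WT over the 17307 genes that passed the filter. The chaperones differed little between the groups. At an adjusted p under 0.05 in edgeR's quasi-likelihood test, Hsph1 and Dnajb1 were lower and Hspa1a was higher in KO, which is 3 of 10 members. The same threshold was passed by 24.1% of all genes tested, 12.0% higher and 12.1% lower. Without WT replicate 1 it was passed by 6 members, 2 higher and 4 lower, and by 28.2% of all genes. The largest difference was 19.6%, in Hspa1a. None of the 10 reached the study's cutoffs of 1.5-fold, p under 0.05 and adjusted p under 0.1, which 6.95% of all genes passed; 5 of the 10 had an unadjusted p under 0.05 in edgeR, as did 34.7% of all genes, and DESeq2 and limma-voom also put 0 of 10 past these cutoffs. The median log2 fold change of the 10 was -0.057 against -0.0042 over all genes tested, and 7 of the 10 values were negative. Together the 10 genes made up 7793 to 8090 CPM in the WT libraries and 7732 to 7995 CPM in the KO libraries.

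**Figure D1:**
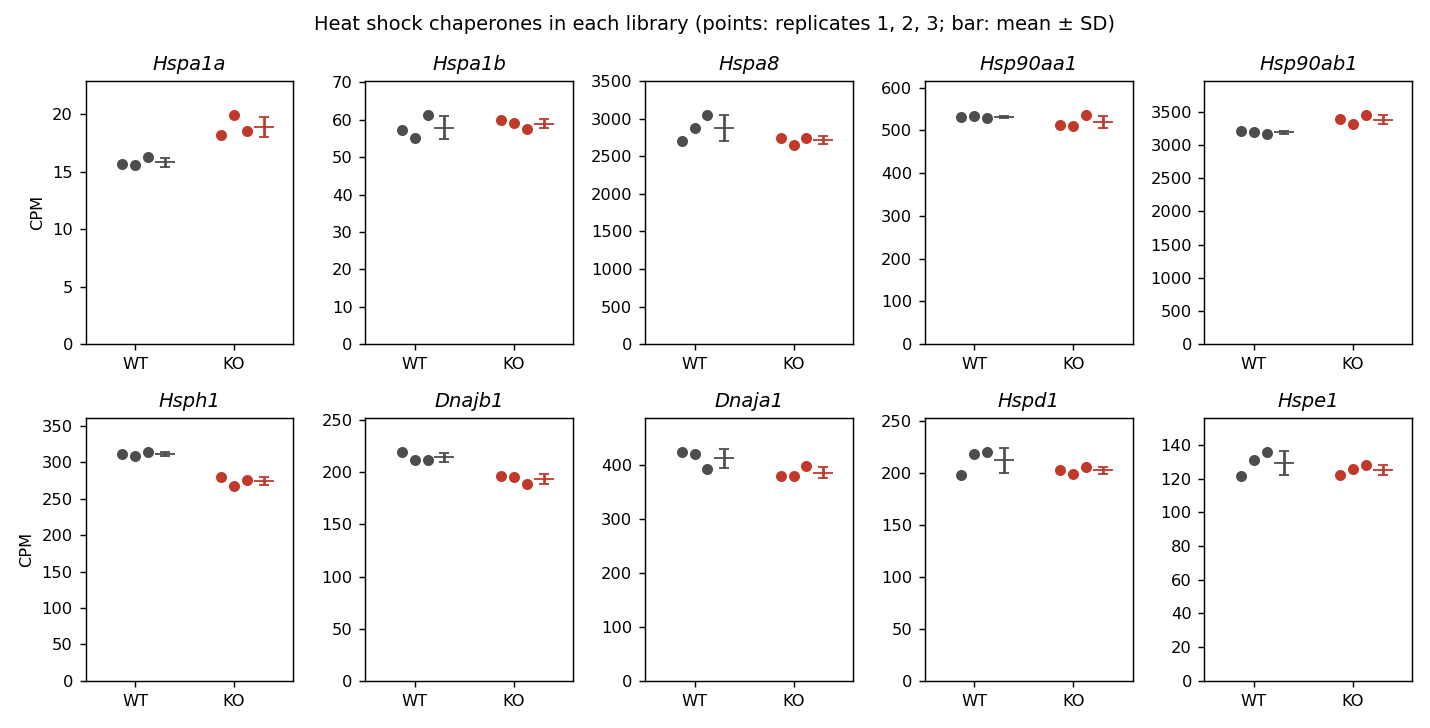
CPM of each of the 10 chaperone genes (vertical axes from 0) in the 3 WT (grey) and 3 KO (red) libraries, with the mean and SD of each group. The groups lie apart for Hspa1a, Hsp90ab1, Hsph1 and Dnajb1 and overlap for the other 6 genes.

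Levels spanned a wide range. Per kilobase of annotated exon, Hsp90ab1 had the highest level in WT, 1065 CPM per kb, followed by Hspa8 with 668 CPM per kb and Hsp90aa1 with 135 CPM per kb. The mitochondrial pair came next, Hspe1 with 87.8 and Hspd1 with 80.3 CPM per kb, and their WT libraries overlapped (82.5 to 92.1 for Hspe1 and 75.0 to 83.3 for Hspd1), whereas in KO they did not (82.8 to 86.8 and 75.3 to 77.9 CPM per kb). Dnajb1 (66.9), Dnaja1 (47.8), Hsph1 (42.9), Hspa1b (20.7) and Hspa1a (5.33 CPM per kb) followed, with no overlap between neighbours in WT. Hsp90ab1 and Hspa8, the constitutive HSP90 and HSP70, stood above their inducible relatives in both groups. These levels depend on the exon length used, which was 8629 bases for Dnaja1.

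Among the HSP70 genes, Hspa8 (chr9:40800984-40810087, plus strand), the constitutive cytosolic form, was measured at 2701, 2878 and 3044 CPM in WT replicates 1, 2 and 3 and at 2745, 2654 and 2741 CPM in KO. The WT libraries covered the whole KO range, apart from KO replicate 2, which lay below all of them. Its log2 fold change was -0.083 (SE 0.041, edgeR adjusted p = 0.174). Without WT replicate 1, its lowest WT library, the value was -0.13 and passed the threshold (edgeR adjusted p = 0.00478, from 0.00478 to 0.477 over 17 alternatives). Hspa8 overlaps Snord14c, Snord14d and Snord14e on its own strand.

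Hspa1b, an inducible HSP70, was at 57.3, 55.2 and 61.2 CPM in WT and at 60.1, 59.1 and 57.7 CPM in KO, so the groups overlapped (log2 fold change 0.028, SE 0.044, edgeR adjusted p = 0.705), and the sign turned negative with library sizes alone and without WT replicate 2. Its neighbour Hspa1a was at 15.6, 15.6 and 16.3 CPM in WT and at 18.2, 19.9 and 18.5 CPM in KO. Every KO library lay above every WT library, with a log2 fold change of 0.26 (SE 0.056, edgeR adjusted p = 0.00468). The counts of these genes are uncertain, however, since 58.8% of the 50-base stretches of Hspa1a transcripts also occur in Hspa1b, and 62.3% of those of Hspa1b in Hspa1a. Hspa1a also overlaps Gm20481 on the opposite strand, and whether strand was used in counting is not given in the sources used here. Counted as a single feature, the pair had 73.0, 70.8 and 77.5 CPM in WT and 78.3, 79.0 and 76.2 CPM in KO, and the summed log2 fold change of 0.080 did not pass (edgeR adjusted p = 0.186). The share of the pair's counts given to Hspa1a was 21.5% ± 0.486 (SD, n = 3) in WT and 24.2% ± 0.975 (SD, n = 3) in KO, without overlap (exact two-sided permutation test, p = 0.1, the lowest value possible with 3 libraries in each group, and 0.25 after adjustment over 5 sums, shares and ratios compared). The call for Hspa1a therefore holds for the split of reads as deposited and not for the pair.

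Hsph1, the HSP110 partner that resets HSP70, was at 311, 309 and 314 CPM in WT and fell to 279.9, 268 and 275 CPM in KO. The groups lay far apart relative to their spread, 312 ± 2.45 CPM against 274 ± 5.88 CPM (SD, n = 3 in each group). This gave the smallest p-value of the 10 genes, with a log2 fold change of -0.18 (SE 0.031, edgeR adjusted p = 0.000872), a decrease by 11.9%. None of its 50-base stretches occurs in transcripts of other genes.

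Of the J-domain partners of HSP70, Dnajb1 (chr8:83608193-83612653, plus strand), the classical inducible HSP40, was at 219, 212 and 212 CPM in WT and fell to 196, 195 and 188 CPM in KO. No KO library reached a WT library, and the log2 fold change was -0.15 (SE 0.033, edgeR adjusted p = 0.00557). Dnaja1 (chr4:40722150-40737149, plus strand), a constitutive HSP40, was at 424, 422 and 393 CPM in WT and at 380.4, 380.7 and 398 CPM in KO. WT replicate 3 lay below KO replicate 3, and the log2 fold change of -0.096 did not pass (SE 0.037, edgeR adjusted p = 0.0817). It passed with library sizes alone (log2 fold change -0.13, edgeR adjusted p = 0.0248) and without WT replicate 3 (-0.13, edgeR adjusted p = 0.0107), within a range of 0.0107 to 0.27 over 17 alternatives. Dnaja1 also overlaps Gm6297 and Smu1 on the opposite strand and Mir207 on its own strand.

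The cytosolic HSP90 genes went in opposite directions in their group means. Hsp90ab1 (chr17:45567775-45573271, minus strand), the constitutive form, was at 3214, 3200.0 and 3165 CPM in WT and at 3387, 3319 and 3447 CPM in KO. All KO libraries lay above all WT libraries, but the log2 fold change of 0.084 fell short of the threshold (SE 0.031, edgeR adjusted p = 0.0658). It passed with DESeq2 (adjusted p = 0.0132), limma-voom (adjusted p = 0.0327), without a filter on low counts (edgeR adjusted p = 0.0384) and without WT replicate 1 (edgeR adjusted p = 0.0254), and the highest adjusted p over 17 alternatives was 0.238. Hsp90aa1 (chr12:110690605-110702728, minus strand), the inducible form, was at 531, 535 and 529 CPM in WT and at 512, 511 and 535 CPM in KO (log2 fold change -0.033, SE 0.032, edgeR adjusted p = 0.516). KO replicate 3 was above all WT libraries and the other two below them. The share of Hsp90aa1 in the counts of both genes was 14.3% ± 0.0828 in WT and 13.3% ± 0.160 in KO (SD, n = 3), without overlap (exact permutation test, two-sided p = 0.1, or 0.25 after adjustment over the 5 sums, shares and ratios). Of Hsp90aa1, 47.5% of 50-base stretches occur in transcripts of other genes, mostly those of Gm12346, against 3.44% for Hsp90ab1.

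In mitochondria, Hspd1 was at 198, 218 and 220.0 CPM in WT and at 203, 199 and 206 CPM in KO, and Hspe1 was at 122, 131 and 136 CPM in WT and at 122, 126 and 128 CPM in KO. For each gene WT replicate 1 lay below all KO libraries and the other WT libraries above them. The log2 fold changes were -0.067 for Hspd1 (SE 0.041, edgeR adjusted p = 0.275) and -0.046 for Hspe1 (SE 0.042, edgeR adjusted p = 0.48). Without WT replicate 1, Hspd1 passed at -0.12 (edgeR adjusted p = 0.00821, from 0.00821 to 0.597 over 17 alternatives). The ratio of Hspe1 to Hspd1 CPM was 0.61 ± 0.0089 in WT and 0.619 ± 0.0154 in KO (SD, n = 3; exact permutation test, two-sided p = 0.4, also after adjustment). Shared sequence limits these counts too, since 39.7% of the 50-base stretches of Hspd1 and 18.4% of those of Hspe1 occur in transcripts of other genes, as do 39.4% of Hspa8 and 20.6% of Dnaja1, and Hspd1 and Hspe1 overlap each other on opposite strands.

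**Figure D2:**
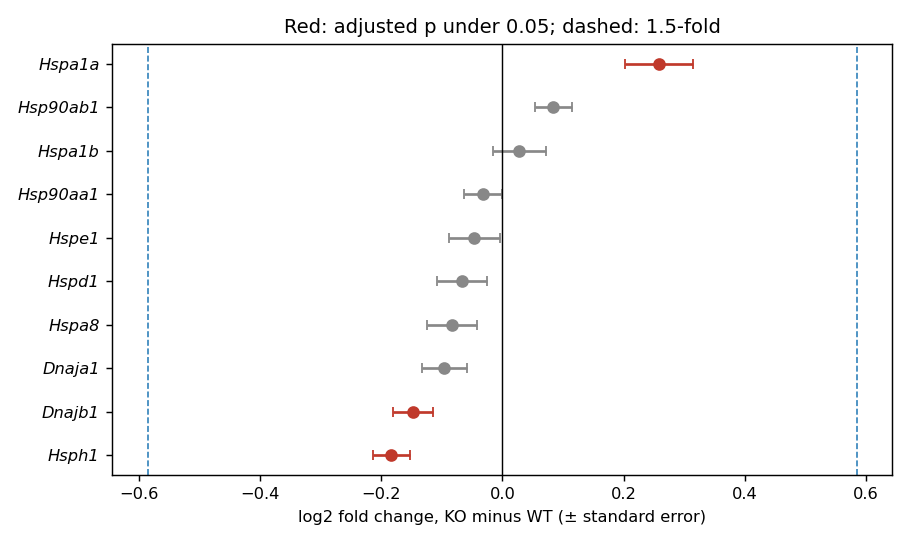
Log2 fold change of each chaperone gene, KO minus WT, with its standard error (horizontal bars); red marks an adjusted p under 0.05 and dashed lines mark 1.5-fold. Hsph1, Dnajb1 and Hspa1a are red, and all 10 lie inside the dashed lines.

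Of the 10 genes, 4 had groups without overlap, 2 in each direction, as did 38.3% of all genes tested, 19.3% with KO above and 19.1% with KO below WT. The SD of log2 CPM between replicates, pooled over both groups, ranked between the 2.55th percentile (Hsp90ab1) and the 33.4th percentile (Hspa8) of all genes tested. Strongly expressed genes vary less in general, so the chaperones were also set against genes above a limit of expression. That set was not matched to the level of each chaperone, and Hspa1a, with an average log2 CPM of 4.12, lay below the limit. Among the 5740 genes whose average log2 CPM was 5 or more, Hsp90ab1, Hsph1, Hsp90aa1 and Dnajb1 stood at percentiles of 6.9, 9.83, 15.7 and 21.3, Dnaja1 stood at 56.8, and Hspa1b, Hspa8, Hspe1 and Hspd1 stood between 66.1 and 74.3. The median SD of the 10 genes was 0.0493 in WT and 0.032 in KO, against 0.0534 and 0.0314 over these 5740 genes and 0.106 and 0.0731 over all genes. Of the 10, 5 varied more in WT than in KO, as did 74.4% of the 5740 genes and 63.9% of all genes.

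No library lay above its group mean for all 10 genes. WT replicate 3 was above its group mean for 6 of the 10 genes and WT replicate 1 for 3, with median deviations of 0.027 and -0.0075 on the log2 scale, and the KO libraries had medians between -0.022 and 0.020. In WT replicate 1, Hspa8, Hspd1 and Hspe1 lay 0.088, 0.096 and 0.088 below the WT mean on the log2 scale, and in WT replicate 3 they lay 0.085, 0.054 and 0.070 above it. Dnaja1 went the other way, by 0.041 above the mean in WT replicate 1 and -0.071 in WT replicate 3. In KO the deviations of Hspa8, Hspd1 and Hspe1 were smaller. They differed in sign in KO replicate 1 (0.017, 0.0011 and -0.037) and KO replicate 2 (-0.032, -0.026 and 0.0071) and were all positive in KO replicate 3 (0.015, 0.025 and 0.030). Over the 6 deviations from group means, Pearson's r was 0.91 between Hspa8 and Hspd1, 0.89 between Hspd1 and Hspe1, 0.84 between Hspa8 and Hspe1 and -0.89 between Hspa1b and Dnaja1, against 0.39 between Hspa1a and Hspa1b. These were chosen from 45 pairs after their values were seen. They describe 6 libraries, within each of which all genes share its depth and preparation, and are given without a test. Deviations within a group are tied through their mean, so the 6 values are not independent. In no library did Hspa1a, Hspa1b, Dnajb1 and Hsph1 all lie above the group mean. Of these genes, only Dnajb1 lay below it in WT replicate 3 (-0.017), only Hspa1a in KO replicate 1 (-0.053) and only Hsph1 in KO replicate 2 (-0.033).

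**Figure D3:**
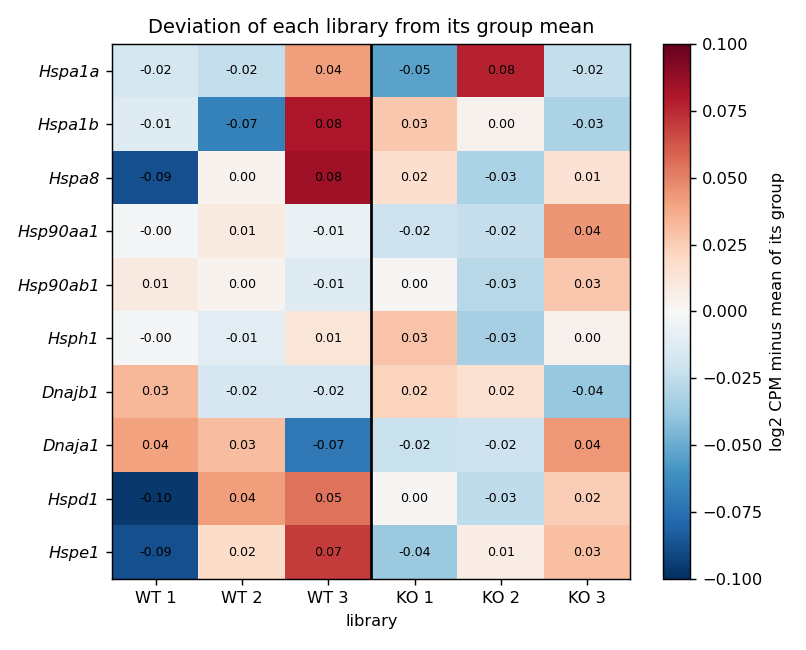
Log2 CPM of each chaperone gene (rows) in each library (columns) minus the mean of its group, in log2 units, red above and blue below. Hspa8, Hspd1 and Hspe1 are low in WT replicate 1 and high in WT replicate 3, and Dnaja1 is the opposite.

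Early response genes, which cell handling also induces, mostly rose in KO. Of 15 such genes, 11 were higher in KO, 1 (Fos) was lower and 3 did not pass in edgeR's test, with a median log2 fold change of 0.27. Over all genes tested, 12.0% were higher and 12.1% lower. The list was chosen with earlier results of these data known. Their summed level was 10849 to 11563 CPM in WT and 13797 to 14258 CPM in KO. Nr4a1, a nuclear receptor induced by T cell receptor signals, was the highest at a log2 fold change of 0.70, followed by Atf3 (0.67), Junb (0.53) and Fosb (0.53), while Fos fell by 0.22. Jun, the weakest of the 11, lost its call without WT replicate 2 (edgeR adjusted p = 0.051, the highest over 17 alternatives). The part of these differences in the chaperone results was not tested.

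The other chaperone genes were described by lists of 102 genes, of which 98 were tested. Of these 98, 11 were higher and 11 were lower in KO in edgeR's test, together 22.4%, close to the 24.1% of all genes, with a median log2 fold change of 0.021. Without WT replicate 1 the count of listed genes rose from 22 to 37. This was a larger rise than that of all genes, whose share called went from 24.1% to 28.2%. In that alternative the listed genes therefore did not stay close to the share of all genes.

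Hsf1, the main heat shock factor, was at 106, 106 and 109 CPM in WT and at 115, 113 and 111 CPM in KO. Its groups did not overlap, but it did not pass (log2 fold change 0.085, edgeR adjusted p = 0.0881). Of the 6 genes in its list only Hsf2, a related factor, passed, with 17.4 to 19.9 CPM in WT and 21.4 to 24.1 CPM in KO (log2 fold change 0.26, edgeR adjusted p = 0.0109). It lost its call without KO replicate 3 (edgeR adjusted p = 0.0654, the highest over 17 alternatives).

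Among 11 further HSP70 and HSP110 genes, 2 rose and 2 fell, together 36.4% against 24.1% of all genes tested. Hspa5, the HSP70 of the endoplasmic reticulum, rose from 824 to 898 CPM in WT to 1066 to 1128 CPM in KO (log2 fold change 0.36, edgeR adjusted p = 1.78e-05), and Hspa2, best known from testis, rose by 0.50 on the log2 scale (edgeR adjusted p = 0.000478). Hspa4l, a relative of Hsph1, had a log2 fold change of -0.33 (edgeR adjusted p = 0.000709). The fourth was Hspa12a, a distant relative at 3.64 to 5.12 CPM in WT (-0.45, edgeR adjusted p = 0.0188), singled out here with its values known, which lost its call without WT replicate 2, KO replicate 2 or KO replicate 3. Hspa9, the mitochondrial HSP70, had a log2 fold change of -0.054 and did not pass (edgeR adjusted p = 0.265). Of the other HSP90 genes, mitochondrial Trap1 fell from 116 to 124 CPM to 91.4 to 93.0 CPM (log2 fold change -0.39, edgeR adjusted p = 4.2e-06), and Hsp90b1 of the endoplasmic reticulum did not pass (-0.075, edgeR adjusted p = 0.174).

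J-domain proteins other than Dnajb1 and Dnaja1 mostly did not pass, 22 of 25, so that 12% were called against 24.1% of all genes tested. Dnajb4, a cytosolic relative of Dnajb1, rose from 31.9 to 33.3 CPM in WT to 51.6 to 53.4 CPM in KO (log2 fold change 0.69, SE 0.041, edgeR adjusted p = 6.17e-08). Dnajb9 of the endoplasmic reticulum rose by 0.51 on the log2 scale (edgeR adjusted p = 3.01e-05), and Dnajc7, a co-chaperone that binds both HSP70 and HSP90, fell by 0.16 (edgeR adjusted p = 0.00425).

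HSP90 and HSP70 co-chaperones had 10 of 25 genes past the threshold, 4 higher and 6 lower. This is 40% of the list, against 24.1% of all genes tested, and the list was chosen with earlier results of these data known. Fkbp5, which modulates steroid receptors bound to HSP90, rose from 106 to 115 CPM to 146 to 149 CPM (log2 fold change 0.40, edgeR adjusted p = 5.38e-06), and Bag3, a nucleotide exchange factor of HSP70, rose by 0.29 (edgeR adjusted p = 0.000649). Chordc1, an HSP90 co-chaperone, fell from 112 to 123 CPM to 94.2 to 100.03 CPM (log2 fold change -0.27, edgeR adjusted p = 0.000356). The 5 other genes that fell, named after their values were seen, were Stip1 (-0.18), which hands clients from HSP70 to HSP90, Ahsa1 (-0.15), which speeds the ATP cycle of HSP90, Ptges3 (-0.23), which binds HSP90 late in that cycle, St13 (-0.19), which binds HSP70, and Cacybp (-0.30). All 6 of these decreases kept an adjusted p under 0.05 in each of the 17 alternatives. Unc45a and Bag5, named in the same way, rose by 0.38 and 0.15, and Bag5 lost its call in 5 alternatives, with library sizes alone and without WT replicate 2 or any of the KO replicates (highest edgeR adjusted p = 0.146).

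In the cytosolic chaperonin TRiC and prefoldin, 1 of 14 genes passed, the TRiC subunit Cct4, which fell from 235 to 248 CPM to 194 to 205 CPM (log2 fold change -0.28, edgeR adjusted p = 6.01e-05). Of 10 mitochondrial quality control genes, the proteases Htra2 (log2 fold change 0.20, edgeR adjusted p = 0.00323) and Lonp1 (0.15, edgeR adjusted p = 0.0248) rose, and Lonp1 lost its call in 7 of 17 alternatives (highest edgeR adjusted p = 0.124), 5 of which left out WT replicate 2, WT replicate 3 or one of the KO replicates. Small heat shock proteins were scarce, with a summed level of 4.80 to 6.07 CPM over all libraries for 9 genes. Of the 5 tested, 0 passed in edgeR, DESeq2 or limma-voom, and 0 had an unadjusted p under 0.05 in edgeR.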

How the data were processed

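Raw counts of 6 libraries were deposited by the authors, 1 row per gene symbol and 32285 rows in all. Of rows that repeat a symbol, 40 in number, the one with most counts was used under that name. The submitters' processing notes name HISAT2, DESeq2 and the build mm10. The study's methods for bulk RNA-Seq describe Tregs of another mouse line, Foxp3Cre. They give HISAT2 set to report at most 1 alignment per read, and StringTie for expression levels. The study's cutoffs come from that description. How the raw counts of the present libraries were made is not given in the sources used here. Depth is the total per library. Libraries were grouped by their titles. In R 4.3.3, edgeR 4.0.16 (TMM, filterByExpr, the newer quasi-likelihood F-test with robust dispersion, Benjamini-Hochberg over 17307 genes) compared KO with WT; standard errors come from the F statistic. Log2 CPM used a prior count of 2. DESeq2 1.42.0, limma 3.58.1 voom, other scalings and filters, the replicate number as a block, each library left out and the Hspa1 pair summed were alternatives. Scripts were tested on simulated counts. Gene positions, exon lengths and shared 50-base stretches (either strand) come from GENCODE for GRCm38.

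The chaperone genes and the lists were chosen with earlier results of these data known. A marker gene is not reported here and was left out of its list. The genes named were the chaperones, Zfp335, Hsf1, Hspa5, Hsp90b1 and Hspa9, up to 3 genes with the smallest p in each other chaperone list, early and marker genes that moved, and the 5 genes most like the chaperones; exceptions are stated. Xist and the Y-linked genes were added after their values were known.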

Additional observations from a re-analysis of the deposited data

How the results depend on the processing

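Hsph1, Dnajb1 and Zfp335 kept their direction and an adjusted p under 0.05 in each of the 17 alternatives, and Hspa1a did in 16, losing its call when summed with Hspa1b (0.080). The log2 fold change of Hspa1b turned negative with library sizes alone (-0.0026) and without WT replicate 2 (-0.0055), within -0.0055 to 0.068 when 1 library was left out. With 1 library left out in turn, the number of chaperones past the threshold was 3 to 6, against 3, the number of listed other chaperone genes 18 to 37, against 22, the number of all genes 2740 to 4996, against 4170, and the median SD of the chaperones between replicates 0.033 to 0.0558, against 0.053. The highest counts of chaperones, listed genes and all genes came without WT replicate 1, the fewest genes in all without WT replicate 2, and the smallest SD without WT replicate 3 (0.033), with the same rounded value without WT replicate 1. Library sizes alone raised the share of lower genes among those called from 50.1% to 61.4%. The cause was not tested.

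Under the replicate block, 3 chaperones, 26 listed genes and 4227 genes passed, and the block changed no call of a chaperone. Deviations of same-numbered libraries had correlations of 0.00819 to 0.0326 over all genes, and replicate numbers were not used to pair libraries. Between replicate libraries, chi-square per gene was at least 7.92, against about 1 for counting error alone (genes with a mean of 50 to 500 counts). The number of independent fragments behind the counts is unknown, and several counts from 1 fragment would raise this value too. It therefore cannot tell whether a library repeats another, and libraries were treated as separate replicates because they are labelled so. The unknown number of fragments also limits weakly expressed genes such as the small heat shock proteins.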

Other observations

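By the rule for likeness, genes outside all lists were ranked by Pearson's r of log2 CPM with the mean z score of the 10 chaperones over the 6 libraries, among genes whose average log2 CPM was 1 or more. That mean was -0.094, 0.25 and 0.58 in WT replicates 1, 2 and 3 and -0.31, -0.43 and 0.0051 in KO, so the groups overlapped. The 5 genes with the highest r were Cpne3, Rchy1, Hmgb2, Vps54 and Xlr4b, with values between 0.991 and 0.994, as a description of 6 libraries without a test. Of these, Hmgb2, a chromatin protein abundant in dividing cells, was at 238 CPM in WT and 217 CPM in KO on average (log2 fold change -0.14, edgeR adjusted p = 0.0374), and the other 4 did not pass.

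The ratio of Hspa8 to Hspa1b, the constitutive to the inducible HSP70 as counted, was 49.7 ± 2.52 in WT and 46.0 ± 1.36 in KO (SD, n = 3; exact permutation test, two-sided p = 0.2, or 0.25 after adjustment over 5 sums, shares and ratios).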
